A study of Mus musculus with 2 samples.

Results

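Mouse embryonic stem cells that carried expression-level gains of both chromosome 1 and chromosome 8 were compared with cells of the same library that carried a gain of chromosome 1 without one of chromosome 8. The double-gain class held 6065 cells and the class with a gain of 1 alone held 1329, out of 21387 cells of time 2 and 35466 cells of both time points that passed the filters. Both classes were selected on measured values. A cell had to have at least 18000 unique molecular identifiers (UMIs), at least 1000 detected genes, at most 10% mitochondrial UMIs, at least 10 UMIs of Pou5f1, fewer than 5 of the fibroblast genes Col1a1 and Bgn together, and fewer than 5 of Fgf5, Fgf8 and Car2 together. For chromosomes 1, 8 and 14 the UMIs on the chromosome were divided by those on the 16 other autosomes, and then by the median of the time 1 cells. A gain was a ratio of at least 1.3, and no gain a ratio below 1.15. Both classes had a gain of 1 and no gain of 14, and differed in chromosome 8.

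The cells were C3H/HeSn-Paf/J embryonic stem cells from 9 lines, 3 each with XX, XO and XY sex chromosomes, pooled into 1 library per time point. Time 2 came 10 passages after time 1. All cells were grown in serum with leukaemia inhibitory factor (LIF) on irradiated embryonic fibroblasts, called feeders, which the libraries also contain. No treatment separated the groups. Cells were not mapped to lines here, so a line and a gain cannot be told apart, and with 1 library there is no replicate: nothing below has a test, and the 95% intervals (exact Poisson for levels, Clopper-Pearson for shares) cover counting error only.

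Mouse embryonic stem cells are kept in a pluripotent state by a network around Pou5f1, Sox2 and Nanog, supported by LIF through Stat3 and by BMP signals through the Id proteins. In long culture such cells often acquire whole extra chromosomes, chromosomes 1 and 8 among the most frequent. An additional copy raises the transcripts of most genes on it in rough proportion to gene dosage, while other genes respond only indirectly. Cells with a pair of active X chromosomes have a higher X-linked output than XY or XO cells, and they readily lose an X in culture.

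**Figure D1:**
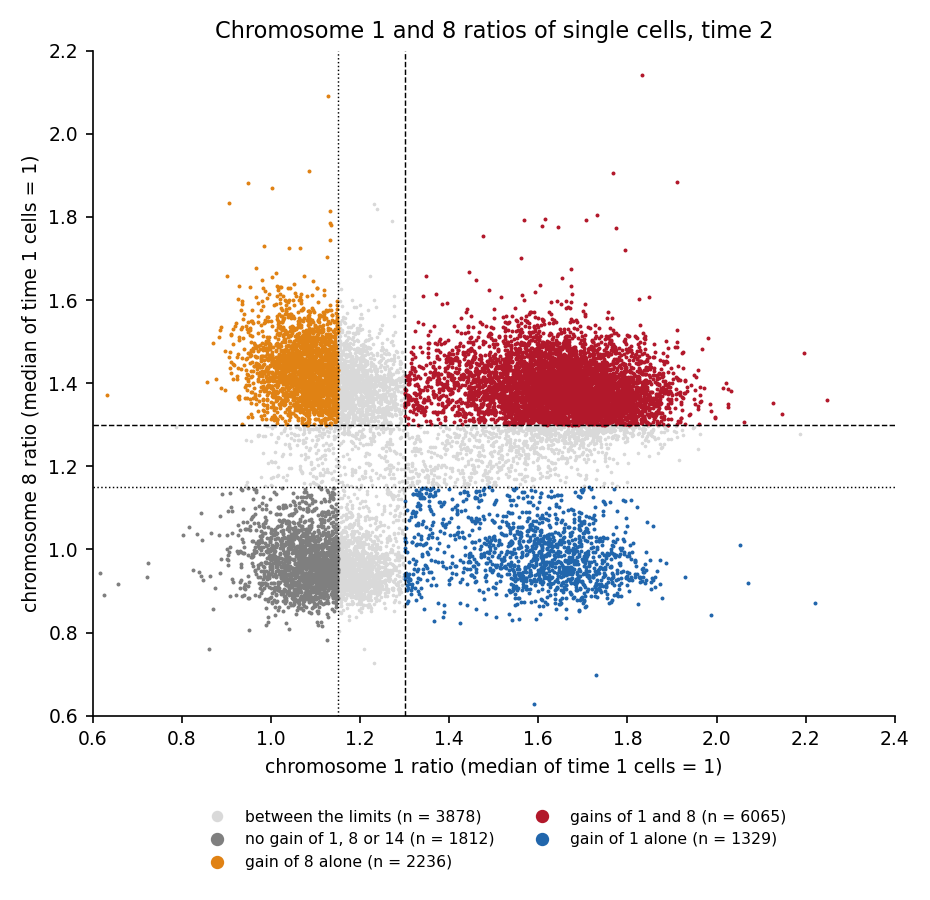
Chromosome 1 ratio (x axis) against chromosome 8 ratio (y axis) of single cells of time 2 without a gain of 14, relative to the median of time 1 cells. Dotted lines mark 1.15 and dashed lines 1.3; the 6065 double-gain cells lie in the upper right and the 1329 cells with a gain of 1 alone in the lower right, and light grey cells fall between the limits and belong to no class.

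The double gain was the more frequent state at time 2. Of 14246 cells with chromosome 1 at gain level, 5840 were left out because the ratio of 14 reached 1.15, and a further 1012 because the ratio of 8 lay between the limits. At time 1 the same limits gave 10 double-gain cells and 174 with a gain of 1 alone. The limits fixed the next values, which are therefore descriptions. The median ratio of chromosome 8 was 1.38 (quartiles 1.349 to 1.425) in double-gain cells and 0.981 in cells with a gain of 1 alone. The median ratio of chromosome 1 was 1.66 and 1.61. The limit of 1.3 cut into the upper mode: 1550 cells lay within 0.05 above it (median 1.33) and 588 within 0.05 below it (median 1.28). At the lower limit 125 cells lay within 0.05 below (median 1.13) and 182 within 0.05 above (median 1.18). A ratio of at least 1.8 for chromosome 8 was seen in 4 double-gain cells.

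Depth was similar in both classes. The median was 50377 UMIs and 6036 genes in double-gain cells, and 53851 UMIs and 6287 genes in cells with a gain of 1 alone. Mitochondrial UMIs had medians of 2.28% and 2.31%. The libraries held 1735810403 UMIs at time 1 and 1843588321 at time 2, and 197 deep barcodes occurred in both (of 26345 and 28359). Of the cells of each class, 5.80% of double-gain cells and 10.2% of cells with a gain of 1 alone were among the 10% of barcodes with the highest Scrublet doublet score. All 12 pluripotency markers were at 10 CPM or more in both classes, where CPM is the level per 1000000 UMIs on the 16 reference autosomes. The 10 fibroblast markers, which include the Col1a1 and Bgn that the selection limited, summed to 11.4 CPM in double-gain cells and 12.5 CPM in cells with a gain of 1 alone. Summed marker levels were 7.32 and 7.21 CPM for mesendoderm, 3.55 and 4.10 CPM for primitive endoderm, and 0.454 and 0.515 CPM for 2-cell-like cells. For neuroectoderm they were 18.98 and 19.01 CPM. Trophoblast markers differed more, at 10.7 and 22.7 CPM, and primed epiblast markers were at 61.9 and 73.5 CPM.

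Chromosome 8 was higher over its whole length. Of 463 chromosome 8 genes with at least 10 CPM in either class, 310 (67%) were higher in double-gain cells by at least 1.3-fold and 0 were lower, which the selection on chromosome 8 fixed in direction. The fold was taken on summed CPM plus 1 (0.38 on the log2 scale). The median log2 ratio was 0.43, with 5% of genes below 0.16 and 5% above 0.60, against 0.585 for a gain from 2 to 3 copies read in proportion. Ratios of UMIs summed over windows of 10 Mb ranged from 0.39 to 0.57 on the log2 scale, so no window lay near 0. The median ratio was 1.38 for the proximal part of the chromosome and 1.39 for the distal part, split at equal UMIs. Both parts were at gain level in 4790 double-gain cells (79.0%, interval 77.9 to 80.0%), and 1 part at gain with the other without gain in 5 cells (0.0824%, interval 0.0268 to 0.192%).

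**Figure D2:**
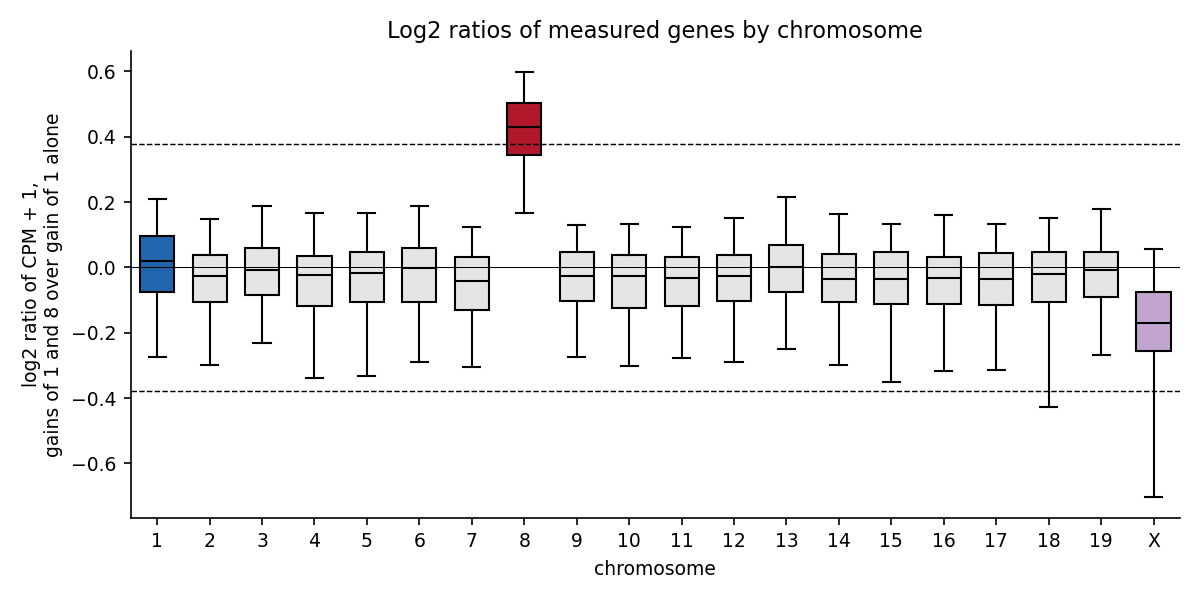
Log2 ratio of CPM plus 1, double gain over gain of 1 alone, for the measured genes of each chromosome; boxes are quartiles with the median, whiskers the 5th and 95th percentiles, and dashed lines 1.3-fold. Chromosome 8 has a median of 0.43, X a median of -0.17, and every other chromosome a median within 0.05 of zero.

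Chromosome 8 genes did not all follow the chromosome. Dctd, the deoxycytidylate deaminase that feeds thymidylate synthesis (chr8:48099092-48153233, GRCm38), was at 43.5 CPM (interval 41.9 to 45.1) with a gain of 1 alone and 78.2 CPM (77.1 to 79.2) with the double gain, a log2 ratio of 0.83. Arl2bp, which binds the small GTPase Arl2, went from 34.7 to 58.8 CPM (0.74), and Ufsp2, a protease that matures the ubiquitin-like Ufm1, from 27.5 to 46.4 CPM (0.73). Plvap (17.2 to 28.6 CPM), 2810004N23Rik (273.4 to 436.7 CPM) and the arginine methyltransferase Prmt7 (83.2 to 133.3 CPM) had log2 ratios of 0.70, 0.67 and 0.67. These 6 genes had the highest ratios on the chromosome among genes of at least 25 CPM. At the other end, Gabarapl2, an autophagy protein of the Atg8 family, was at 301.2 and 273.6 CPM (log2 ratio -0.14) and Cyba, the p22phox subunit of NADPH oxidase, at 51.3 and 47.4 CPM (-0.11). Tacc1 (0.09), the Wnt antagonist Sfrp1 (0.09), Rspry1 (0.11) and Egln1, the prolyl hydroxylase that marks hypoxia-inducible factor for breakdown (0.12), were nearly level. The values of Gabarapl2 and Sfrp1 depended on the cells. In X-low cells, those without a high X dosage as defined below, Gabarapl2 was at 0.10 and Sfrp1 at 0.43, and with a gain limit of 1.4 Gabarapl2 was at 0.16. With a gain limit of 1.2 these 2 genes moved the other way, Gabarapl2 to -0.52, past the fold, and Sfrp1 to -0.37. In X-low cells Cyba was at -0.20, Rspry1 at 0.13, Egln1 at 0.20 and Tacc1 at 0.20, all below the chromosome 8 median of 0.46 in those cells. Rspry1, Ufsp2, Plvap, 2810004N23Rik and Prmt7 overlap an annotated gene on the opposite strand, and strand use in the counting is not given in the sources used here.

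The chromosome 8 difference was of similar size without a chromosome 1 gain. At time 2, 2236 cells with a gain of 8 alone over 1812 cells with no gain of 1, 8 or 14 gave a median log2 ratio of 0.54 over the same chromosome 8 genes, against 0.43 on a chromosome 1 gain. In X-low cells these medians were 0.51 and 0.46. At time 1, in another library, X-low cells with a gain of 8 alone (910 cells) over X-low cells without a gain (4900 cells) gave 0.51. Dctd had log2 ratios of 0.83, 0.81 and 0.89 in these X-low comparisons, Prmt7 0.67, 0.73 and 0.79, and Tacc1 0.20, 0.31 and 0.09. Cyba was at -0.20, -0.11 and 0.12, below the median in each. The limits on chromosome 8 chose the cells in each case.

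Chromosome 8 carries genes of many pathways. Of 42 measured chromosome 8 genes in the pathway lists, 33 were higher by 1.3-fold, against 67% of the whole chromosome, a direction that the selection fixed. The higher ones included Zfp42, the Rex1 marker of naive cells (117.7 to 181.5 CPM, log2 ratio 0.62), whereas the naive factor Klf2 reached 0.29 (440.2 to 539.3 CPM). Among signalling genes were Gab1, a docking protein of cytokine receptors (57.7 to 77.5 CPM, 0.42), the BMP effector Smad1 (13.1 to 17.4 CPM, 0.39), and the MAPK phosphatase Dusp4 (13.6 to 20.9 CPM, 0.58). The 6 measured antioxidant and metallothionein genes on the chromosome, all but the last past the fold, were Hmox1 (haem oxygenase, 0.66), Gsr (glutathione reductase, 0.64), Prdx2 (0.54), Mt2 (0.44), Mt1 (0.40) and Nqo1 (0.27). Mt1 was at 1239 CPM with a gain of 1 alone and 1636 CPM with the double gain. In cells with at least 2 Y UMIs Mt1 was at 0.20 and Mt2 at 0.23, within the fold, and at a gain limit of 1.4 they were at 0.76 and 0.78. Rpl13 (8730 to 12690 CPM, 0.54) was higher among ribosomal protein genes, as were Psmd7 (0.54) and Psmb10 (0.38, and 0.23 at a gain limit of 1.4) of the proteasome and Cox4i1 (0.45), Ndufb7 (0.50) and Ndufa13 (0.42) of the respiratory chain. The adhesion molecules Cdh1 (E-cadherin, 65.8 to 89.9 CPM, 0.44) and Itgb1 (55.9 to 88.6 CPM, 0.65) and the replication genes Mcm5 (0.50) and Cdt1 (0.42) were also on this side.

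Off chromosomes 1, 8 and 14 most autosomal genes were nearly level, and lower genes outnumbered higher ones. Of 6136 measured genes, 24 (0.391%) were higher in double-gain cells by 1.3-fold and 199 (3.24%) were lower, with a median log2 ratio of -0.02 and 5th and 95th percentiles of -0.31 and 0.15. Lower genes were 89.2% of those past the fold, and 75.9% (107 lower, 34 higher) when the classes were scaled by edgeR's TMM factors. In X-low cells 190 of these genes were lower and 30 higher. The median ratio moved with level, from -0.05 for the 2212 genes under 25 CPM on average to 0.02 for the 353 genes at 400 CPM or more, and 116 of the 199 lower genes were under 25 CPM.

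The lowest gene was Ipp, a kelch-repeat protein (chr4:116507549-116538243). Its level was 90.3 CPM in cells with no gain, 50.7 CPM (interval 48.9 to 52.4) with a gain of 1 alone, 26.7 CPM with a gain of 8 alone and 11.8 CPM (11.4 to 12.2) with the double gain. The double-gain class was thus the lowest of the 4, with a log2 ratio of -2.01 to the gain of 1 alone. With every cell thinned to 18000 UMIs, 12.9% of double-gain cells (interval 12.1 to 13.8%) had a UMI of Ipp, against 35.0% (32.4 to 37.6%) with a gain of 1 alone and 5.82% of 275 fibroblast-like barcodes; without thinning the shares were 30.98%, 53.05% and 15.64%. In cells with at least 2 Y UMIs the log2 ratio was -2.31.

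Pla2g1b, a secreted phospholipase A2 (chr5:115466262-115474722), was at 162.7 CPM (159.7 to 165.9) with a gain of 1 alone and 71.1 CPM (70.1 to 72.1) with the double gain, a log2 ratio of -1.18. Here the no-gain cells (138.8 CPM) lay with the gain of 1 alone, and the cells with a gain of 8 alone (51.2 CPM) with the double gain. Id2, a dominant inhibitor of basic helix-loop-helix factors and a BMP target (chr12:25093799-25097140), was at 113.0 CPM with no gain, 95.2 CPM with 1 alone, 39.2 CPM with 8 alone and 42.7 CPM with both (-1.14). Platr3, a pluripotency-associated long noncoding RNA (chr2:135648907-135652063), was at 78.7, 55.5, 19.4 and 25.6 CPM in that order (-1.09). For these 3 genes both classes with a gain of 8 lay below both classes without one. The same order held over all cells for Ipp above and for Prrc1, Smtnl1, Gm49504, Crlf2 and Platr14 below. In X-low cells, 1 alone over no gain was at 0.26 for Id2 and 0.17 for Platr3, against the order of the all-cell levels. There, 8 alone over no gain was at -1.36 for Pla2g1b, -1.08 for Id2 and -1.22 for Platr3.

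In the other 6 of the 10 lowest genes the double gain was below the gain of 8 alone as well. Prrc1 was at 45.6 CPM with a gain of 1 alone, 37.8 CPM with 8 alone and 21.7 CPM with both (log2 ratio -1.04). Smtnl1, a smoothelin-like protein, was at 30.9, 28.1 and 14.6 CPM (-1.03), and the noncoding RNA Gm49504 at 36.8, 28.2 and 18.5 CPM (-0.96). Crlf2, a cytokine receptor subunit, was at 25.4, 21.7 and 13.0 CPM (-0.91, and -0.47 in X-low cells). Platr14 was at 26.4, 20.6 and 13.8 CPM (-0.89). With no gain, Prrc1 was at 52.9 CPM, Smtnl1 at 44.9 CPM, Gm49504 at 48.9 CPM, Crlf2 at 84.4 CPM and Platr14 at 28.1 CPM. Sfmbt2, a Polycomb-group protein, differed from these. Over all cells, the class with a gain of 8 alone was the highest of the 4 (69.1 CPM, against 41.6 CPM with 1 alone and 22.1 CPM with both, -0.88). For 8 alone over no gain, Sfmbt2 was at 0.60 in all cells but at 0.0015 in X-low cells, where those classes were level. Its ratio of both over 1 alone was -0.34 in cells with at least 2 Y UMIs. Prrc1 and Sfmbt2 overlap an opposite-strand gene.

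**Figure D3:**
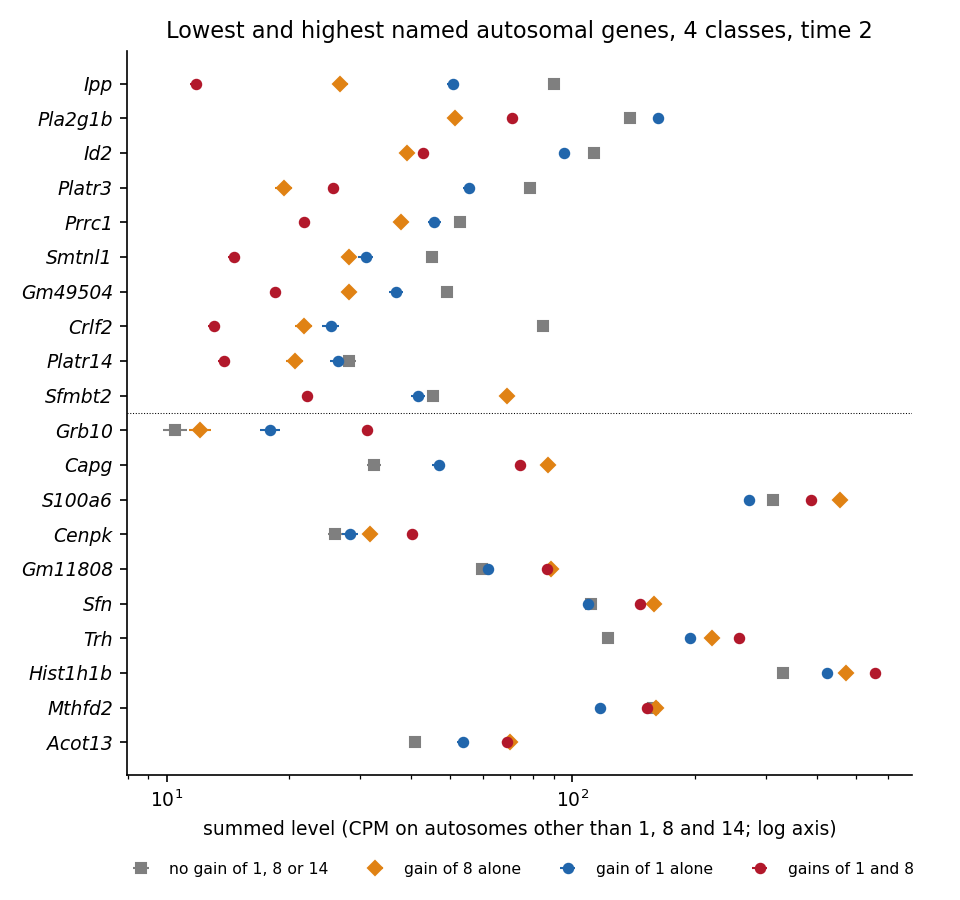
Summed level (CPM, log axis) of the 10 lowest and 10 highest autosomal genes in the 4 classes of time 2; bars are 95% Poisson intervals, mostly narrower than the symbols. Ipp falls from 90.3 CPM with no gain to 11.8 CPM with both gains, and Grb10 is highest with both gains at 31.1 CPM.

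Higher genes were fewer and their ratios smaller. Grb10, an imprinted adaptor of the insulin receptor (chr11:11930508-12038683), was at 17.9 CPM with a gain of 1 alone and 31.1 CPM (30.5 to 31.8) with the double gain (log2 ratio 0.76). It was at 10.5 CPM with no gain and 12.1 CPM with 8 alone, so the double-gain class stood above the other 3. With a gain limit of 1.4 its log2 ratio was 0.34, short of the fold. In X-low cells, 8 alone over no gain was at -0.34 for Grb10, the other direction from these all-cell levels. Capg, an actin-capping protein, was at 46.8 CPM with 1 alone and 74.1 CPM with both (0.65), and S100a6, a calcium-binding protein, at 271.7 and 387.5 CPM (0.51). With 8 alone they were at 87.2 and 457.1 CPM, and with no gain at 32.4 and 312.2 CPM. Thinned fibroblast-like barcodes had a UMI of Grb10 in 65.5% of cases, against 27.6% of double-gain cells and 18.1% with a gain of 1 alone, of Capg in 94.9% and of S100a6 in 100%, and the part of feeder RNA in these ratios was not tested. Cenpk, of the inner kinetochore, was at 28.2 and 40.2 CPM (0.49) and overlaps an opposite-strand gene. Sfn, the 14-3-3 sigma protein, was at 109.0 and 146.7 CPM (0.42), and Trh, the thyrotropin-releasing hormone precursor, at 195.2 and 256.9 CPM (0.39, and -0.18 with a gain limit of 1.4). The linker histone Hist1h1b (425.1 to 558.0 CPM, 0.39) and the mitochondrial folate enzyme Mthfd2 (116.9 to 152.8 CPM, 0.38) lay just past the fold, the first at 0.34 with r14 allowed up to 1.3 and the other at 0.25 with a gain limit of 1.2, and the thioesterase Acot13 (53.6 to 69.1 CPM, 0.36) just short of it.

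Gm11808 (chr4:3973092-3973595), also among the higher genes, was at 61.9 CPM with a gain of 1 alone and 86.3 CPM with the double gain (log2 ratio 0.47). Most of its transcript sequence also occurs in transcripts of another gene, so its reads can be split between copies and its ratio is uncertain.

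**Figure D4:**
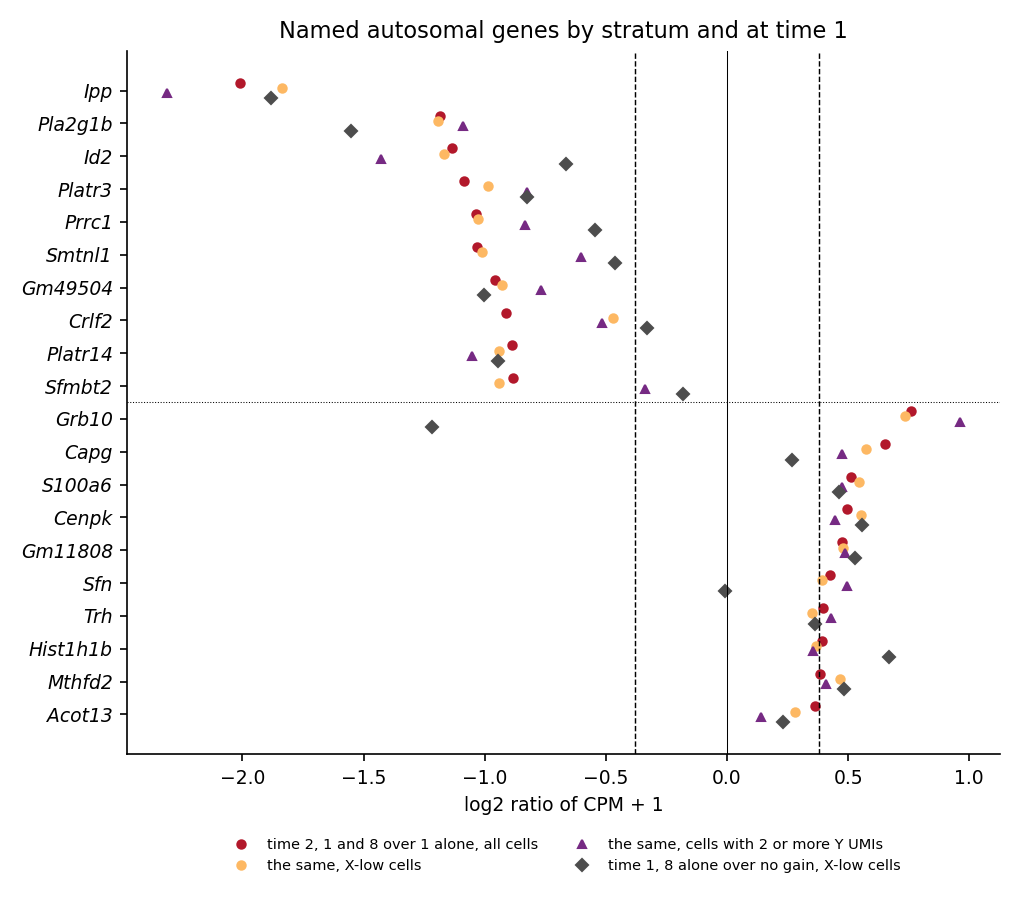
Log2 ratio of CPM plus 1 for the same 20 genes in all cells of time 2, in X-low cells, in cells with at least 2 Y UMIs, and for a gain of 8 alone over no gain in X-low cells of time 1; dashed lines mark 1.3-fold. The 10 lowest genes are below zero in each, and Grb10 is at 0.76 at time 2 and -1.22 at time 1.

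The genes lower on a chromosome 1 gain were mostly lower with a chromosome 8 gain at time 1 too. In X-low time 1 cells, 8 alone over no gain, 206 (3.44%) of 5982 genes measured in both comparisons were lower by 1.3-fold and 65 (1.09%) were higher. Of the 182 among them that were lower at time 2, 171 were below zero at time 1 and 81 were lower by 1.3-fold, with a median of -0.35, while 51.6% of all 5982 genes were below zero. Of the 16 higher at time 2, 14 were above zero at time 1 and 9 higher by 1.3-fold, with a median of 0.43. Across the 5982 genes the ratios of the 2 libraries had a Pearson correlation of 0.64, as a description, since genes are not independent and depth and base composition are shared. The same lines were pooled at both times, so a line difference present in both cannot be told apart from the gain. At time 1, cells with at least 2 Y UMIs were 1.68% of all cells with 8 alone and 8.72% of those with no gain. Ipp was at -1.88 at time 1, Pla2g1b at -1.55, Gm49504 at -1.004, Platr14 at -0.95, Platr3 at -0.83 and Id2 at -0.67. Of the 20 named genes, 6 were within the fold at time 1: Crlf2 (-0.33), Sfmbt2 (-0.18), Sfn (-0.01), Acot13 (0.23), Capg (0.27) and Trh (0.37).

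Chromosome 1 was gained in both classes and was nearly level between them. Of 456 measured genes, 4 (0.877%) were higher and 12 (2.63%) lower, with a median log2 ratio of 0.02. Arl4c, a small GTPase (26.5 to 14.8 CPM, -0.80), Hes6, a Hes-family transcription factor (37.7 to 22.4 CPM, -0.72), and Dusp27 (41.7 to 25.9 CPM, -0.67) were the lowest among those of at least 25 CPM. In X-low cells of time 1, Arl4c was at -0.98 and Hes6 at -0.89 with a gain of 8 alone, and Dusp27 at -0.07. The Nodal inhibitor Lefty1, also on chromosome 1, was at 287.0 CPM with 1 alone and 183.3 CPM with both (-0.64), but at -0.19 in cells with at least 2 Y UMIs. Among genes of at least 25 CPM the highest were the imprinted Zdbf2 (81.3 to 103.7 CPM, 0.35), the Bcl2-family gene Bok (0.27) and Tor3a (0.27), all within the fold. Zdbf2 was past it in X-low cells (0.46), and Bok in cells with at least 2 Y UMIs (0.47).

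The classes differed in X dosage, which the selection did not use. X dosage was the UMIs of X-linked genes other than Xist over reference autosomes, relative to the median of cells with at least 2 UMIs of 4 Y-linked genes, and X-high meant 1.2 or more. In the double-gain class 31 of 6065 cells were X-high (0.511%, interval 0.348 to 0.725%), and with a gain of 1 alone 179 of 1329 (13.5%, 11.7 to 15.4%). The difference was -13.0 percentage points (Newcombe interval -14.9 to -11.2). Cells with no gain were X-high in 64.8% of cases and cells with a gain of 8 alone in 2.42%. Between 1.1 and 1.3, around the limit, lay 3.25% of double-gain cells and 6.85% of cells with a gain of 1 alone. The size of the difference rested on the cells taken: it was -7.19 points among cells with at most 60000 UMIs, -8.60 points without the highest Scrublet scores, -4.88 points at a gain limit of 1.4 and -34.1 points at 1.2. Cells with at least 2 Y UMIs were 6.74% of double-gain cells (6.13 to 7.40%) and 9.78% of cells with a gain of 1 alone (8.24 to 11.5%), a difference of -3.04 points (-4.86 to -1.42).

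**Figure D5:**
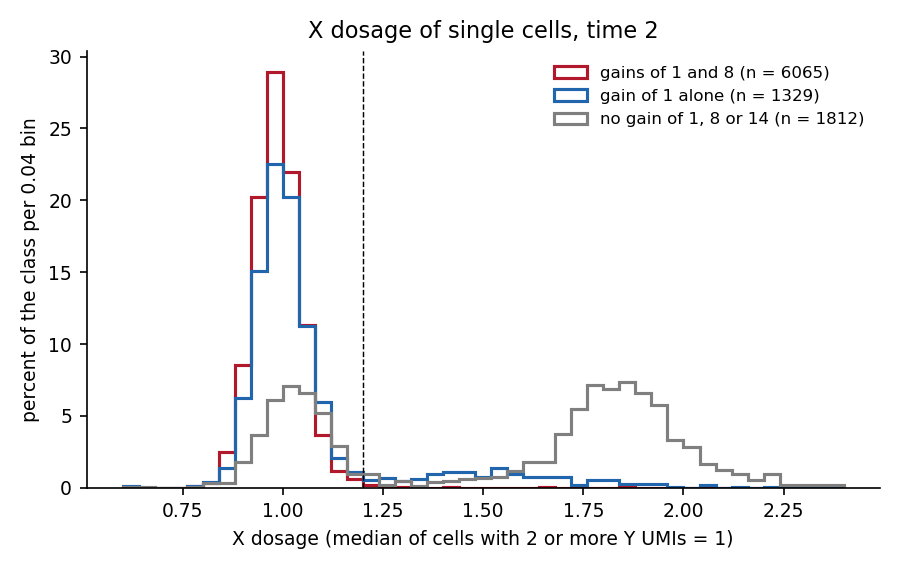
X dosage of single cells at time 2 (x axis, 1 is the median of cells with at least 2 Y UMIs) as percent of each class per bin; the dashed line is the X-high limit of 1.2. Both classes with a gain of 1 peak near 1, and the tail above the limit holds 13.5% of cells with a gain of 1 alone and 0.511% of double-gain cells.

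X-linked genes were lower on balance, beside the lower X-high share: of 242 measured, 31 (12.8%) were lower, 0 (0%) were higher, and the median log2 ratio was -0.17. In X-low cells, 19 were lower, 2 higher, and the median was -0.02. Klhl13, a substrate adaptor of a Cul3 ubiquitin ligase, was at 133.4 CPM (130.6 to 136.2) with 1 alone and 39.0 CPM (38.2 to 39.7) with both (-1.75, and -1.45 in X-low cells). The cancer-testis gene Fmr1nb went from 35.5 to 11.5 CPM (-1.55, X-low -1.04). The reproductive homeobox gene Rhox5 went from 335.8 to 112.4 CPM (-1.57, X-low -1.62), and was at -1.34 in the X-low comparison of time 1. All 4 measured members of the 34 listed Rhox genes were lower: Rhox9 (114.5 to 70.0 CPM, -0.70), Rhox6 (124.4 to 74.0 CPM, -0.74) and Rhox1 (15.1 to 6.39 CPM, -1.13) beside Rhox5. With a gain limit of 1.4, Rhox6 was at -0.23 and Rhox9 at -0.17, both within the fold. Rhox1 was at -0.44 in X-low cells and -0.10 in cells with at least 2 Y UMIs. The highest X-linked genes of at least 25 CPM were 2010204K13Rik (0.25), Bex2 (0.22) and the dyskerin gene Dkc1 (0.21, overlapping an opposite-strand gene), within the fold. In X-low cells Bex2 (0.43) and Dkc1 (0.40) were past it, and Dkc1 was at -0.05 in cells with at least 2 Y UMIs.

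The share of cells with further gains on the 16 other autosomes did not differ beyond counting error at the limits used, but moved with them. With cells thinned to 18000 UMIs, 7.02% of double-gain cells (6.39 to 7.70%) and 7.22% of cells with a gain of 1 alone (5.89 to 8.75%) had at least 1 such ratio of 1.3 or more. The difference was -0.20 points (-1.84 to 1.24), so a difference inside this interval could not be told from 0. With classes cut at a gain limit of 1.2 it was 3.39 points, at 1.4 it was -2.80 points, and among cells with at least 2 Y UMIs -2.31 points. The intervals of chromosomes 11 and 6 did not overlap. Chromosome 11 was at gain level in 0.725% of double-gain cells (0.528 to 0.973%) and 2.56% of cells with a gain of 1 alone (1.78 to 3.56%). Chromosome 6 was at gain level in 1.58% (1.284 to 1.930%) and 0.677% (0.310 to 1.282%), a gap between the intervals of almost nothing. The intervals of chromosome 19 overlapped, at 3.02% (2.60 to 3.48%) and 2.18% (1.47 to 3.12%). These shares are small, and whether chromosome-wide expression differences enter them beside copies was not tested.

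In the core pluripotency list Dppa5a alone passed the fold. Of its 13 measured genes off 1, 8 and 14, 1 was lower and 0 higher, where 3.24% of all autosomal genes off 1, 8 and 14 were lower and 0.391% higher, with a median log2 ratio of -0.06. Dppa5a, an RNA-binding protein and the most abundant pluripotency marker, was at 10230 CPM with no gain, 7717 CPM with 1 alone, 5752 CPM with 8 alone and 5127 CPM with both (-0.59, X-low -0.54). Pou5f1 was at 969.8 and 971.4 CPM and Sox2 at 401.6 and 351.3 CPM (-0.19). The 7 naive genes off 1, 8 and 14, 1 of them X-linked, had a median of -0.25, which was -0.66 at a gain limit of 1.2 and -0.11 at 1.4. Of these 7, 2 were lower, against the same 3.24% of autosomal genes. These were Tbx3 (61.4 to 38.3 CPM, -0.67) and Klf4 (148.8 to 104.9 CPM, -0.50), and Nanog was at 158.3 and 124.9 CPM (-0.34). In X-low cells the same genes were at -0.24, -0.21 and -0.15, within the fold, while at a gain limit of 1.2 Tbx3 was at -1.22 and Klf4 at -0.91. The X-high share was also lower in double-gain cells, and its part in the remaining ratios was not tested.

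Each signalling list had 0 to 2 genes off chromosomes 1, 8 and 14 past the fold, where 3.24% of all autosomal genes off 1, 8 and 14 were lower. In lists this short, 1 gene was already above that share. Of 6 BMP and Id genes 2 were lower, Id2 and Id3 (167.8 to 128.7 CPM, -0.38), whereas Id1 was at 37.4 and 43.8 CPM (0.22). Id3 stayed past the fold in 7 of 15 alternatives and was at -0.20 in cells with at least 2 Y UMIs, where Egr1 was at -0.28. Of 10 MAPK feedback genes and targets 1 was lower, Egr1 (28.2 to 20.6 CPM, -0.44), with a median of -0.16, and Etv4 was at 65.5 and 83.7 CPM (0.35). None of 9 LIF-Stat3 genes passed the fold (median -0.11), with Stat3 at 0.03, Socs3 at 0.12 and Pim1 at -0.28. Skil, a repressor of Smad signalling, was the lower one of 5 Nodal genes (54.9 to 41.4 CPM, -0.40, and -0.21 at a gain limit of 1.2). None of 8 Wnt genes passed the fold, Tcf7l1 being lowest at -0.34. Among 7 DNA methylation genes Dnmt3b, a de novo methyltransferase, was lower (133.3 to 95.1 CPM, -0.48, X-low -0.57, and -0.30 at a gain limit of 1.2), while Dnmt1 (-0.04) and Dnmt3a (0.05) were level.

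Of 14 measured genes of the imprinted list 5 were lower and 1, Grb10, higher, where 3.24% of all autosomal genes off 1, 8 and 14 were lower and 0.391% higher. The list held neither Zdbf2 nor Ascl2 (11.9 to 4.59 CPM), imprinted genes named elsewhere in the text. The lower ones of the list were the maternally expressed noncoding RNAs Meg3 (129.9 to 82.4 CPM, -0.65), Rian (30.2 to 19.7 CPM, -0.59) and H19 (28.6 to 18.1 CPM, -0.63), the cell cycle inhibitor Cdkn1c (25.4 to 18.3 CPM, -0.45) and Peg10 (32.0 to 24.2 CPM, -0.39). Meg3 and Rian come from 1 locus on chromosome 12. At a gain limit of 1.2, Cdkn1c was at -0.06 and H19 at -0.34, and Peg10 was at -0.21 in X-low cells, all within the fold. With a gain of 8 alone, Meg3 was at 139.9 CPM and Rian at 30.8 CPM, above the double gain. Of 7 germline genes that depend on promoter methylation 4 were lower: Tuba3a (16.9 to 6.74 CPM, -1.21), Dazl (10.1 to 5.47 CPM, -0.78), Hormad1 (36.0 to 26.4 CPM, -0.43) and Rpl10l (35.6 to 26.5 CPM, -0.41). In X-low cells Tuba3a was at -0.79 and Dazl at -0.43, and Hormad1 (-0.29) and Rpl10l (-0.31) were within the fold.

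Of 12 adhesion and keratin genes off chromosome 8, 5 were lower and 0 higher, against 3.24% and 0.391% of all such autosomal genes, with a median of -0.26 (-0.13 and -0.14 at gain limits of 1.2 and 1.4) against -0.02 for all autosomal genes off 1, 8 and 14. Baiap2l1, an actin-bundling adaptor (19.02 to 4.14 CPM, -1.96), stood out, with 33.8 CPM in cells with no gain and 8.11 CPM with a gain of 8 alone. Espn, another actin-bundling protein, was at 22.2 and 13.8 CPM (-0.65) but at 44.4 CPM with a gain of 8 alone. Krt8 (16.7 to 11.1 CPM, -0.55), Krt18 (18.5 to 13.6 CPM, -0.41) and Vim (89.8 to 66.8 CPM, -0.42) completed the group. Several of these were within the fold under other limits: Krt18 (-0.27) and Vim (-0.32) in X-low cells, Krt8 (-0.31) and Krt18 (-0.12) from 30000 UMIs, Krt8 at a gain limit of 1.2 (-0.21), and Espn at 1.4 (-0.22). The 6 trophoblast markers, Krt7 among them, summed to 22.7 CPM with a gain of 1 alone and 10.7 CPM with both, and their part in the keratin values was not tested. Cdh1 and Itgb1, on chromosome 8, lay on the other side.

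Housekeeping and stress lists were nearly level off chromosomes 1, 8 and 14. None of 27 proteasome genes (median 0.02), 19 chaperone genes (0.01), 73 nuclear respiratory chain genes (-0.01), 22 sterol and fatty acid synthesis genes (-0.004), 21 replication genes (-0.02) or 25 mitosis genes (0.02) passed the fold. The same held for 14 p53 targets (median -0.05), with Cdkn1a at 82.96 and 83.22 CPM, and for 10 apoptosis regulators, 10 antioxidant genes and 15 damage response genes. For the counts that follow, the share of all autosomal genes off 1, 8 and 14 that were lower was 3.24%. The 78 ribosomal protein genes included 4 X-linked ones and the 22 glycolysis and hypoxia genes 1, where 12.8% of X-linked genes were lower. Of 78 ribosomal protein genes 2 were lower, near that share, the testis-biased copies Rpl39l (152.0 to 115.4 CPM, -0.39, and -0.07 in cells with at least 2 Y UMIs) and Rpl10l, and Rpl22l1 was at 1101 and 1388 CPM (0.33). Of 22 glycolysis and hypoxia genes Ldhb, a lactate dehydrogenase subunit (371.8 to 258.8 CPM, -0.52), and Hk1 (18.3 to 13.3 CPM, -0.43) were lower; Ldhb was at -0.30 with a gain limit of 1.2 and Hk1 at -0.21 with one of 1.4. Of 17 unfolded protein and integrated stress response genes Xbp1 was lower (30.53 to 21.03 CPM, -0.52, and -0.30 in cells with at least 2 Y UMIs). The 25 measured replication-dependent histone genes had the highest median of the lists off chromosome 8, 0.18, with 1 past the fold (Hist1h1b); Hist1h2ae was at 189.3 and 239.3 CPM (0.34) and Hist1h1e at 82.2 and 100.8 CPM (0.29). Of 14 listed Polycomb genes Epop was lower (150.5 to 115.1 CPM, -0.38, X-low -0.12). Sfmbt2, lower as well, was not in that list. Of 3 measured genes of the MHC class I list, Tapbp, the tapasin gene and not itself a class I molecule, was lower (15.76 CPM with the double gain, -0.52).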

How the data were processed

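Droplet single-cell RNA libraries (10x Chromium, version 3.1 chemistry, per the labels) were analysed, 1 per time point. Per the labels and file headers, the authors deposited a matrix of raw UMI counts for each library; the submitters' processing notes name Cell Ranger 6.1.2, bcl2fastq 2.20.0.422 and the builds mm10 and GRCm38. Normalization before deposit was none, as the counts are whole. Of 32285 genes, 32235 matched GENCODE M21 (GRCm38), which gave chromosomes and positions.

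UMIs were summed per class, scaled to CPM on the 16 autosomes other than 1, 8 and 14, and compared as log2 ratios with a pseudocount of 1 for genes with at least 10 CPM in either class. Named genes were, among those with at least 25 CPM, the 10 highest and 10 lowest ratios on these autosomes, 6 each on chromosome 8 and 3 each on chromosomes 1 and X, beside members of 32 gene lists and 8 marker lists. The members and lists were chosen with earlier results of these data known. List members off 1, 8 and 14 could be X-linked, while the shares set beside them are of autosomal genes. Exact intervals are at 95%. Scrublet in scanpy 1.11.5 was run per library; its automatic threshold marked 0 of 25962 barcodes at time 1 and 1 of 28317 at time 2 at its default expected rate of 0.05, and 3091 and 1 at a rate of 0.1, so doublets were not removed, and leaving out the 10% of highest scores was tried in place of it. Alternatives changed the cell limits, strata, scaling (edgeR 4.0.16), filter, pseudocount and fold. Scripts were tested on simulated data and ran in Python 3.11.15, numpy 2.4.6, scipy 1.17.1, pandas 2.3.3 and R 4.3.3. Values of some genes are not reported here.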

Additional observations from a re-analysis of the deposited data

Results flagged for a closer look

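Of all measured genes off chromosome 8, 6 differed in direction between the time points. Each was past 1.3-fold one way with a chromosome 8 gain on top of a chromosome 1 gain at time 2, and past it the other way with a chromosome 8 gain alone in X-low cells of time 1. The difference itself was not tested, since each time point has 1 library. For scale, 182 autosomal genes off 1, 8 and 14 were lower at time 2 and measured in both comparisons. Of these, 81 were lower by 1.3-fold in the time 1 comparison and 3 were higher. Of the 16 such genes higher at time 2, 9 were higher at time 1 and 1 was lower. Grb10 was at 0.76 at time 2 on the log2 scale, against -1.22 in the time 1 comparison, and at 0.74 in X-low cells of time 2. With a gain limit of 1.4 its time 2 ratio was 0.34, within the fold. For 8 alone over no gain at time 2, Grb10 was at -0.34 in X-low cells and at 0.19 in all cells, both within the fold. Without a chromosome 1 gain its direction at time 2 thus depended on the cells taken. Hormad1 was at -0.43 and 0.40, but at -0.29 in X-low cells of time 2, and at -0.91 at time 1 when X-high cells were kept. Rpl10l was at -0.41 and 0.42, with -0.31 in X-low cells of time 2 and -0.48 at time 1 when X-high cells were kept. The other 3 were chosen after their values were seen. Krt17, a keratin, was at -0.40 and 0.40, with -0.39 in X-low cells of time 2 and 0.06 at time 1 when X-high cells were kept. Gap43 was at 0.46 and -0.39, with time 1 levels of 8.26 CPM without a gain and 7.91 CPM with a gain of 8 alone, and -0.05 at time 1 when X-high cells were kept. Gm47283, annotated on the Y chromosome, was at 0.59 and -0.66. The share of cells with at least 2 Y UMIs was lower with the chromosome 8 gain at both times. It was 6.74% with both gains against 9.78% with 1 alone at time 2. Over all cells of time 1 it was 1.68% with 8 alone against 8.72% with no gain. The part of this share in the 2 ratios was not tested.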

How the results depend on the processing

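No paired analysis was possible because each time point has 1 library and cells carry no replicate number. The planned removal of barcodes marked by Scrublet was not run, because its automatic threshold failed; leaving out the highest 10% of scores, chosen after seeing the data, stands in for it.

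The number of cells depended on the limits. A gain limit of 1.4 left 2291 double-gain cells, a maximum of 60000 UMIs left 3926 and 811 with a gain of 1 alone, and at least 2 Y UMIs left 409 and 130. The median log2 ratio of chromosome 8 genes was 0.45 without the highest Scrublet scores, 0.48 at a gain limit of 1.4, 0.48 at most 60000 UMIs, 0.46 in X-low cells, 0.45 as a mean over cells, 0.41 scaled to all UMIs, 0.50 with TMM, 0.39 from 1 CPM, 0.46 from 50 CPM, 0.445 with a pseudocount of 0.1 and 0.375 with 5.

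Of autosomal genes off 1, 8 and 14, the number higher was 38 at a gain limit of 1.4, 41 at most 60000 UMIs, 92 with at least 2 Y UMIs, 13 scaled to all UMIs, 45 from 1 CPM, 7 from 50 CPM, 15 with a pseudocount of 5, 72 at 1.2-fold and 6 at 1.5-fold. The number lower was 326 at a gain limit of 1.2, 107 with TMM, 582 from 1 CPM, 49 from 50 CPM, 129 with a pseudocount of 5, 422 at 1.2-fold and 72 at 1.5-fold. The X-high difference in points was -8.60 without the highest Scrublet scores, -15.2 with ratios at 18000 UMIs, -34.1 and -4.88 at gain limits of 1.2 and 1.4, -15.2 with r14 under 1.3, -7.19 at most 60000 UMIs and -7.71 with X-high from 1.5. The further-gain difference was 3.39 and -2.80 at gain limits of 1.2 and 1.4, and -2.31 with at least 2 Y UMIs. Trh was -0.18 at a gain limit of 1.4. Of 1620 alternative values of 108 named genes, 979 stayed within the counting interval of the reported value, 640 moved beyond it and 1, the Trh value above, changed the sign of a gene past the fold. Genes within the fold could change sign as well. Of 491 values of list medians and steps, 461 stayed within the allowance and 30 moved. For the list medians that allowance was a 95% interval of the median from the ranked members, or the full range of members for the shortest lists. It is wide for short lists.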

Other observations

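Most of the summed trophoblast marker level (10.7 CPM in double-gain cells and 22.7 CPM with a gain of 1 alone) came from Ascl2, an imprinted transcription factor (11.9 to 4.59 CPM), and Krt7 (7.03 to 3.18 CPM). Cdx2 (0.863 and 0.461 CPM) and Elf5 (0.151 and 0.154 CPM) were below 1 CPM in both classes. The sum was 30.4 CPM in cells with no gain and 16.7 CPM with a gain of 8 alone.

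Among genes under the level for naming, chosen after their values were seen, Lin28b, a let-7 inhibitor, was at 12.7 CPM with a gain of 1 alone and 18.2 CPM with the double gain (log2 ratio 0.49), and its ratio was 0.21 in cells with at least 2 Y UMIs. Halr1, a noncoding RNA of the Hoxa region, was at 7.27 and 11.0 CPM (0.53), with 1.28 for a gain of 8 alone in X-low cells of time 1. Gap43 was at 13.3 and 18.7 CPM (0.46) but at -0.39 in that time 1 comparison.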
